A study of Mus musculus with 12 samples.

Results

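Genes of ATP-binding cassette (ABC) transporters were followed in the heart after Balb/c mice, an inbred strain, were gavaged with a compound labelled DMA or with its vehicle DMSO. The members were all genes with a probe whose only annotated symbol was Abc, a letter from a to g, and a number, and a gene with several probes was read from the brightest one. This gave 42 genes of the 18069 named on the array, measured by 52 of its 36227 probes. Hearts were taken 24 h or 48 h after 30 mg/kg DMA, and each of these groups was set against hearts taken at the same time after DMSO. Each of the 4 groups had 3 one-colour arrays, numbered 1 to 3. The labels do not expand the abbreviation DMA and give no sex or age. The hearts of a group were pooled before total RNA was isolated, so p-values here measure the spread between these samples, which may be technical. The tissue was whole heart muscle, in which fewer cells of a type and less RNA per cell cannot be told apart.

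ABC proteins use ATP to move substrates across a membrane, and the letters A to G name subfamilies by sequence. Many A and G members carry lipids, B and C members include drug exporters, mitochondrial carriers and channel regulators, and D members act in peroxisomes and lysosomes. The E and F members cross no membrane, and ABCE1 and ABCF1 are known from translation. In heart the family is best known for the sulfonylurea receptors of the ATP-sensitive potassium (K-ATP) channel, for mitochondrial carriers tied to iron and haem, and for drug exporters in the vessel wall. Genes of this name form without such a probe were not analysed here.

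Several members lie side by side in the mouse genome with no coding gene between them. These were Abca8b, Abca8a, Abca9, Abca6 and Abca5 on chromosome 11, Abca14, Abca15 and Abca16 on chromosome 7, Abcg5 and Abcg8 on chromosome 17, and Abcb1a, Abcb1b and Abcb4 on chromosome 5. Abcb1a and Abcb1b both encode P-glycoprotein, the multidrug exporter that humans make from a single gene. They are shown because they are near relatives with separate starts. The Abcb1a probe lay above the background level defined below on 11 of 12 arrays and the Abcb1b probe on 0, which gives no order between the genes, since probes differ in brightness. Their start regions, from RefSeq in build GRCm38.p6, each run 5′ to 3′ from 250 bases before the start to 50 bases after it on the + strand, with every CpG in capitals. Abcb1a spans chr5:8566841-8567140 and Abcb1b spans chr5:8797897-8798196.
Abcb1a: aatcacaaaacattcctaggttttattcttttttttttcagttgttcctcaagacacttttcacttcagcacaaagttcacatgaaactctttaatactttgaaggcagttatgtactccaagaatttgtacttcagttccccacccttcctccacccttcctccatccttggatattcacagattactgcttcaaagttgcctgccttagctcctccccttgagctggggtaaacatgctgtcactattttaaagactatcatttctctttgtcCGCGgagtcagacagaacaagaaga
Abcb1b: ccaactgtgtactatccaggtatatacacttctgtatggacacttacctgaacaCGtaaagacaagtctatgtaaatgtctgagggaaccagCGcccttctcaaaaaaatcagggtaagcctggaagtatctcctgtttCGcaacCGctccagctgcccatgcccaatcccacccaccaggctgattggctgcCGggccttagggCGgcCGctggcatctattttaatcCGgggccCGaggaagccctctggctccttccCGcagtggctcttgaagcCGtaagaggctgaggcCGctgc
The Abcb1a window held 2 CpG, which is 0.181 of the number its base composition would give, at 40.3% GC. The Abcb1b window held 12 CpG, a ratio of 0.535, at 55.0% GC. RefSeq windows were found for 32 members, 38 windows in all. A CpG ratio of 0.6 or more was present in 66.7% of the 15 windows of members above background on 6 or more arrays, in 47.8% of the 23 windows of the other members, and in 35.8% of all 32851 windows counted. The 15 windows belonged to 12 genes and the 23 windows to 20 genes. Windows of a chromosome that holds no member were left out of the count. On either strand, the GC box GGGCGG was in 60.0% of those 15 windows, in 43.5% of the 23 and in 35.7% of all. TATAAA was in 13.3%, 21.7% and 13.6% of the same sets, and TGACNNNGC, the core of the antioxidant response element, in 13.3%, 13.0% and 12.4%. These matches describe the letters of the windows only.

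The arrays were not equally alike. Both arrays treated here as standing apart came from DMA hearts, and each was singled out by a different measure. Across probes, DMA 24 h replicate 3 had a correlation of 0.742 with the median array of its time, against 0.927 to 0.963 for the remaining 11 arrays. Its lowest value, 1.37, was shared by 503 probes, and limma's array weights gave it 0.0865, the lowest of the 12. On DMA 48 h replicate 3, probes at the start of the numbering (the lowest decile) deviated from the rest of its time by a median of 0.35 log2 and those at its end (the highest decile) by -0.96. By correlation this array did not stand apart: it had 0.940, above DMSO 24 h replicate 2 with 0.927. Medians of the deposited log2 values were 6.03 to 6.04 on the 24 h arrays and 6.35 to 6.36 on the 48 h arrays. The values had the form of a table scaled within each time, and levels are not compared across times here. Probes without a value were most frequent on DMSO replicate 1 of each time. They numbered 3997 on that array at 24 h, against 322 to 1557 on the other 24 h arrays. At 48 h they numbered 2498, against 675 to 1509 on the others. Cardiomyocyte markers were often left without a value, for a reason not given: of 15 with a probe, 4 had values on all 12 arrays and 2 on none.

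Because probes differ in brightness, a member was called detected only against a background scale. This scale came from 589 vomeronasal and olfactory receptor genes, best known from sensory neurons of the nose, and background was their 95th percentile on each array. It lay at 7.50 to 8.61 log2 on 11 arrays and at 9.14 on DMA 24 h replicate 3. By this measure 2 members were above background on all 12 arrays, 12 members on 6 to 11 arrays and 28 members on 0 to 5, among them 25 on 0 arrays. Members above background on 6 or more arrays made up 33.3% of the family, against 36.9% of all genes. On all 12 arrays the shares were 4.76% of members and 11.6% of all genes. A member at background is not shown to be absent, since a weak probe gives the same reading.

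By subfamily, 4 of 13 A members, 3 of 8 B members, 3 of 9 C members and 1 of 6 G members were above background on 6 or more arrays. None of the 3 D members reached this, and the single E member and both F members did.

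**Figure D1:**
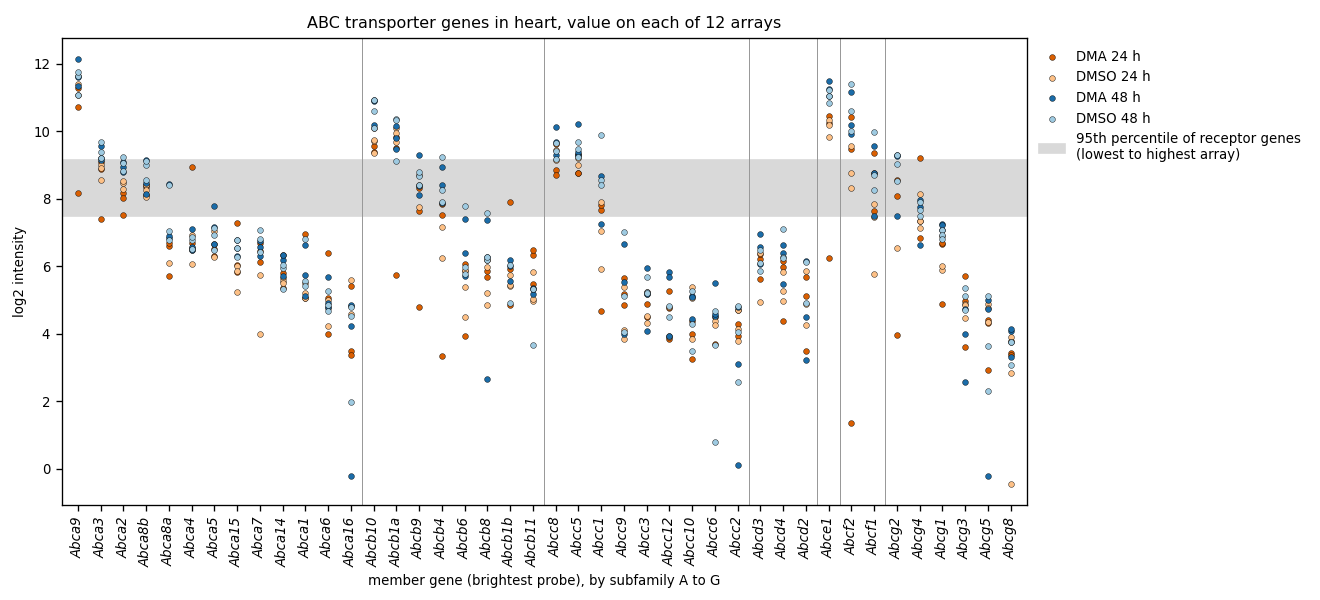
Log2 intensity of the 42 ABC genes on each of the 12 arrays, 1 column per gene, grouped by subfamily A to G. Orange points are DMA and light orange points DMSO hearts at 24 h, dark blue points are DMA and light blue points DMSO hearts at 48 h. The grey band spans the background level over the arrays, 7.50 to 9.14. The isolated low orange points of Abca9, Abcb1a, Abce1 and Abcf2 are all from DMA 24 h replicate 3.

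The 2 members above background on every array were Abcb10 and Abcc5. Abcb10 is a mitochondrial inner membrane transporter needed for haem synthesis, and Abcc5 exports cyclic nucleotides. Abcb10 read 9.40, 10.11 and 9.55 log2 in DMA 24 h hearts, against 9.37, 9.70 and 9.73 in DMSO 24 h hearts. At 48 h it read 10.88, 10.19 and 10.91 in DMA hearts, against 10.91, 10.10 and 10.59 in DMSO hearts. The groups overlapped at both times. Abcc5 read 8.76, 8.77 and 9.31 in DMA 24 h hearts, against 8.98, 9.22 and 9.28 in DMSO 24 h hearts. At 48 h its values were 9.30, 9.39 and 10.22 in DMA hearts, against 9.48, 9.24 and 9.67 in DMSO hearts. These groups also overlapped, and the highest value came from DMA 48 h replicate 3. A dimmer Abcc5 probe, with a mean of 6.58, was above background on 0 arrays.

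Among lipid carriers of the A subfamily, Abca9, Abca2, Abca3 and Abca8b were above background on 6 or more arrays. A dimmer Abca3 probe, with a mean of 8.17, was above it on 5 arrays. Abca2 acts in lysosomes, Abca3 loads surfactant lipids into lamellar bodies of the lung, and Abca8b and Abca9 belong to the chromosome 11 cluster. Abca9 averaged 11.70 ± 0.41 log2 in DMA 48 h hearts and 11.49 ± 0.36 in DMSO 48 h hearts (SD, n = 3 each). Of its 4 neighbours in the cluster, Abca8b was above background on 9 arrays, Abca8a on 1, and Abca5 and Abca6 on 0. Abca1, which loads cholesterol onto apolipoprotein A-I, and Abcg1, which passes it to high-density lipoprotein, were above background on 0 arrays. Abca4 of the retina and Abca7, a phospholipid carrier of phagocytes and brain, were on 0 as well, as were Abca14, Abca15 and Abca16, described in mouse testis.

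Of the drug exporters, Abcb1a was above background on 11 arrays, Abcg2 (breast cancer resistance protein) on 7 and Abcc1 (a glutathione conjugate exporter) on 6. Abcb4, which moves phosphatidylcholine into bile, was above it on 3 arrays. The bile salt exporter Abcb11 and the conjugate exporters Abcc2 and Abcc3 were above it on 0, as were Abcg5 and Abcg8, which pump sterols into bile and gut as a pair. Abcb9, a lysosomal peptide carrier, was above background on 7 arrays. Abcc10, a relative of the conjugate exporters, Abcc6, the hepatic protein lost in pseudoxanthoma elasticum, Abcc12 and the rodent gene Abcg3 were on 0, and Abcg4, a sterol carrier of brain, on 2.

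The 2 sulfonylurea receptor genes gave readings that depended on the probe. Abcc9 encodes SUR2, the form described for heart ventricle and vessels, and its only probe ran from 3.85 to 7.00 log2 and was above background on 0 arrays. Abcc8 encodes SUR1, described for pancreatic islets and mouse atria. Its 3 probes averaged 9.37, 8.39 and 4.96, and they were above background on 11, 10 and 0 arrays. The brightest had a value on 11 arrays and was above background on each of them. These levels belong to different probes and give no order of SUR1 and SUR2.

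Of the other organelle carriers, Abcb6 and Abcb8 of mitochondria were above background on 0 arrays, as were the peroxisomal fatty acid carriers Abcd2 and Abcd3 and the lysosomal cobalamin carrier Abcd4. Abce1, which splits ribosomes after termination, was above background on 11 arrays, Abcf2 on 11 and Abcf1, which takes part in translation initiation, on 6. All 11 of the readings of Abce1 and of Abcf2 above background came from the arrays other than DMA 24 h replicate 3.

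DMA hearts were set against DMSO hearts at 24 h with limma, over 35401 probes with at least 2 values per group. No ABC gene passed the adjusted threshold of 0.05, nor did any other probe (0.0% of 35401), while 1071 probes had an unadjusted p under 0.05. Of the 42 members 40 were tested, and the differences of DMA minus DMSO were positive in 22 and negative in 18, with a median of 0.04 log2. Over all genes the median was 0.09 and 55.2% were positive. One member, Abca7, had an unadjusted p under 0.05, against 2.82% of all genes (2.0% higher and 0.818% lower). The remaining pair, Abca8a and Abcg2, had only 1 value in DMSO 24 h hearts and entered no test.

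Abca7 read 6.14, 6.45 and 6.70 log2 in DMA 24 h hearts, against 3.99 and 5.75 in DMSO 24 h hearts, where replicate 1 had no value. Every DMA value was above both DMSO values, and all 5 were below the background level. The difference was 1.56 log2 (SE 0.51, 95% interval 0.42 to 2.70; limma adjusted p = 0.871), and it was 1.43 without DMA replicate 3. Groups without overlap were found for 1 other member, Abca2, and for 7.71% of all genes (4.42% with every DMA value above and 3.29% with every DMA value below). Abca2 read 8.17, 8.02 and 7.52 in DMA 24 h hearts, against 8.29, 8.47 and 8.53 in DMSO 24 h hearts. Its DMA values were all below the DMSO values, and the lowest came from replicate 3. The difference of -0.53 (SE 0.31, limma adjusted p = 0.871) was -0.34 without that array.

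The translation factor gene Abcf1 had the second smallest p among positive differences. It read 7.62, 8.75 and 9.36 log2 in DMA 24 h hearts, against 7.85, 5.78 and 7.45 in DMSO 24 h hearts. The groups overlapped, since DMA replicate 1 lay below DMSO replicate 1, and DMSO replicate 2 was the low value. The difference was 1.55 (SE 0.73, limma adjusted p = 0.871), and leaving out 1 array at a time gave 0.93 to 2.03. Smaller p-values than the rest on the positive side also belonged to Abcg8 (1.43), Abcb11 (0.82), Abca15 (0.68) and Abca4 (0.91). All 4 were at background on every array. Without DMA replicate 3 Abca15 had 0.23 and Abca4 0.14. Abcg8 rested on DMSO replicate 3, which read -0.44, the lowest value of its array, and the difference was 0.16 without it.

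On the negative side, 5 of the 6 members with the smallest p-values were above background on 6 or more arrays. Abcb1a read 9.83, 9.51 and 5.74 log2 in DMA 24 h hearts, against 9.68, 10.11 and 9.95 in DMSO 24 h hearts. DMA replicate 3 lay far below the other 5 arrays, and DMA replicate 1 was inside the range of the DMSO values. The difference was -1.55 (SE 0.87, limma adjusted p = 0.871) with that array and -0.24 without it. Abca9 read 11.27, 10.72 and 8.17 in DMA 24 h hearts, against 11.07, 11.64 and 11.38 in DMSO 24 h hearts, a difference of -1.31 that was -0.37 without DMA replicate 3. Abce1 read 10.25, 10.44 and 6.23 in DMA 24 h hearts, against 10.33, 9.83 and 10.17 in DMSO 24 h hearts. Its difference was -1.14 with DMA replicate 3 and 0.24 without it. Abcb9 had -1.36 with and -0.30 without it, and Abcc10, a gene at background, -0.89 and -0.58.

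Abcf2 had the widest range at this time. It read 9.48, 10.42 and 1.37 log2 in DMA 24 h hearts, against 9.56, 8.77 and 8.32 in DMSO 24 h hearts, and 1.37 was the lowest value of that array. The difference was -1.79 (SE 1.78, limma adjusted p = 0.872) with DMA replicate 3 and 1.06 without it.

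This single array moved with the sign of the member differences as a whole. Over the members, the correlation of its values with the remaining 24 h arrays was 0.392, against 0.937 to 0.979 for those 5 arrays. Of 12 members with a median of 8 log2 or more on the other arrays, 9 were below that median on it, by a median over the 12 of -2.30. Of 30 members under 8 log2, 20 were above, with a median of 0.50. Among the 13 tested members above background on 6 or more arrays, 3 differences were positive and 10 negative at 24 h, with a median of -0.36. All genes of that brightness had a median of -0.01, with 49.1% positive. Without the array 6 of these members were positive and 7 negative, with a median of -0.00, and all such genes had -0.02 and 48.1% positive. Among the 27 dimmer members 19 were positive and 8 negative, with a median of 0.25, where all dimmer genes had 0.14 and 58.8% positive. Without the array 16 of 25 were positive, with a median of 0.14, and all dimmer genes had 0.01 and 51.2% positive. Leaving the array out turned the sign of 13 of 38 members, and differences of 1 log2 or more in size numbered 5 without it and 8 with it.

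**Figure D2:**
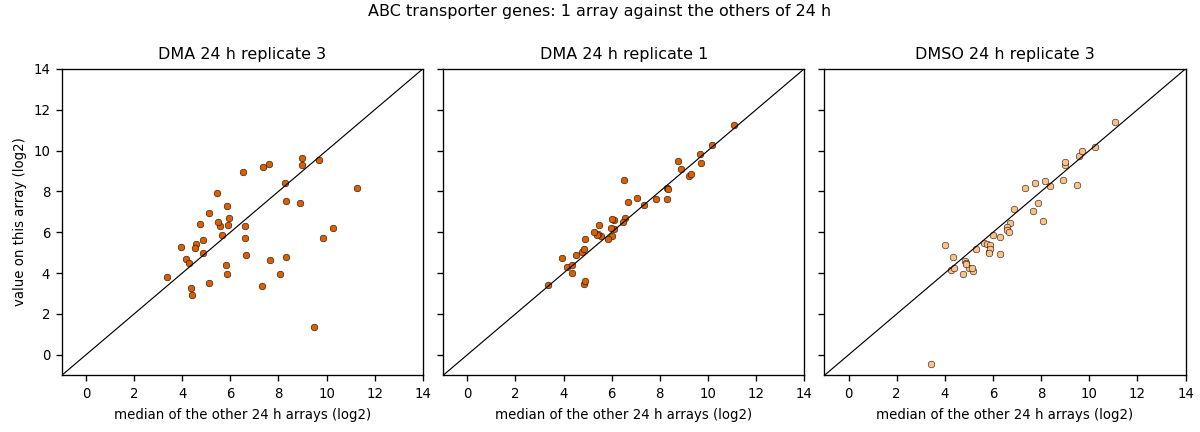
Each panel plots the value of every ABC gene on 1 array (vertical, log2) against its median over the 5 remaining 24 h arrays (horizontal, log2), with the line of equality. On DMA 24 h replicate 3, at the left, the members scatter with a correlation of 0.392 and Abcf2 lies at 1.37. On DMA 24 h replicate 1 and DMSO 24 h replicate 3 the points lie nearer the line, with correlations of 0.955 and 0.939. On DMSO 24 h replicate 3 Abcg8, at -0.44, lies far from it.

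Other members of known role gave these values at 24 h. Abcc9 read 5.18, 4.84 and 5.64 log2 in DMA hearts, against 5.37, 3.85 and 4.10 in DMSO hearts, with overlap and a difference of 0.78 (SE 0.81). Abcc8 had a difference of -0.24 by its brightest probe, and 0.71 and 0.69 by the others, so its probes disagreed in sign. Abcc1 had -0.24 with DMA replicate 3 and 0.78 without it, and Abcg1 -0.19 and 0.41. Abca1 had 0.74 from 2 DMA values of 5.05 and 6.95, against 5.51, 5.07 and 5.20 in DMSO hearts. Among mitochondrial carriers the differences were 0.09 for Abcb10, 0.04 for Abcb6 and 0.56 for Abcb8, and without DMA replicate 3 they were 0.15, 0.71 and 0.58. Peroxisomal Abcd2 and Abcd3 had -0.24 and 0.39, lysosomal Abcd4 0.15 and Abcb1b 0.70. Without DMA replicate 3 these values were 0.40, 0.24, 0.71 and -0.14, so Abcd2 and Abcb1b turned in sign. Each of the limma intervals from all arrays included 0.

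At 48 h the same comparison again gave no ABC gene and no other probe past the adjusted threshold (0.0% of 35401), with 494 probes at an unadjusted p under 0.05. Differences were positive in 19 and negative in 21 of 40 tested members, with a median of -0.01 log2, against 0.01 and 51.4% positive over all genes. No member had an unadjusted p under 0.05 (1.02% of all genes did, 0.636% with a higher and 0.386% with a lower level), and in none were the groups without overlap (6.27% of all genes, 3.95% with DMA above and 2.33% with DMA below). Without DMA 48 h replicate 3, 25 of 39 members were positive, with a median of 0.11, and all genes had a median of 0.01 and 50.7% positive. Leaving it out turned the sign of 12 of 39 members.

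The largest positive difference at 48 h was that of Abcc6. It read 4.53, 4.59 and 5.50 log2 in DMA 48 h hearts, against 0.80, 4.67 and 3.67 in DMSO 48 h hearts. The groups overlapped, and DMSO replicate 1 was far below the rest. The difference was 1.83 (SE 0.86, 95% interval -0.10 to 3.76; limma adjusted p = 1.0), and 0.70 without that DMSO array. Next by p on the positive side were Abcb11 (0.79), Abcc10 (0.55), Abca5 (0.36), Abcd3 (0.38) and Abca14 (0.30), all at background on every array. Without DMA replicate 3 Abca5 had 0.07, Abcd3 0.17 and Abca14 0.17, and without DMSO replicate 3 Abcc10 had 0.12 and Abca14 0.07. The 2 further Abca14 probes gave -0.76 and -0.85.

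The smallest p among negative differences at 48 h was that of Abcg3. It read 3.99, 4.75 and 2.59 log2 in DMA 48 h hearts, against 5.11, 4.70 and 5.37 in DMSO 48 h hearts. The groups overlapped by DMA replicate 2, and DMA replicate 3 was lowest. The difference was -1.28 (SE 0.61, limma adjusted p = 1.0), and -0.69 without DMA replicate 3. Mitochondrial Abcb8 read 7.37, 6.27 and 2.67 in DMA 48 h hearts, against 7.56, 6.17 and 6.27 in DMSO 48 h hearts. Its value on DMA replicate 3 stood alone, and the difference of -1.23 was 0.15 without it. Abcc2 read 4.80, 3.11 and 0.12 in DMA 48 h hearts, against 4.83, 4.05 and 2.57 in DMSO 48 h hearts, with the lowest value of each group at number 3. Its difference was -1.14, and 0.14 without DMA replicate 3, while the differences between same-numbered arrays were -0.03, -0.95 and -2.45. Abcd2 had -0.90, and -0.19 without DMA replicate 1, which read 3.22 while DMSO replicate 1 had no value. A dimmer Abcd2 probe gave 0.26. Abca8b had -0.31, and -0.09 without DMA replicate 3.

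Abcc1, the glutathione conjugate exporter, was read by 2 probes at 48 h. The brighter probe read 8.67 and 7.24 log2 in DMA 48 h hearts, where replicate 1 had no value, against 9.88, 8.56 and 8.40 in DMSO 48 h hearts. DMA replicate 2 was inside the range of the DMSO values. The DMA replicate without a value had the same number as the highest DMSO value. The difference was -0.99 (SE 0.98, limma adjusted p = 1.0), and -0.53 both with the replicate block and without DMSO replicate 1. The pairs that could be formed differed by 0.11 (number 2) and -1.16 (number 3). The dimmer probe, at background on every array and singled out after its values were seen, had -1.39 (SE 0.51), with an unadjusted limma p under 0.05. At 24 h the same probes had -0.24 and -0.32.

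Other members gave these values at 48 h. Abca2 read 8.95, 8.78 and 9.10 log2 in DMA 48 h hearts, against 9.06, 8.82 and 9.23 in DMSO 48 h hearts, with overlap and a difference of -0.09. Abce1 had 0.23, Abcb10 0.13, Abcc5 0.17, Abcc8 0.29, Abcb1a -0.13, Abca9 0.20, Abcf1 -0.37 and Abcf2 -0.23. Without DMA 48 h replicate 3 these 8 values were 0.11, 0.00, -0.12, 0.07, -0.30, -0.02, 0.19 and 0.02, so Abcc5, Abca9, Abcf1 and Abcf2 turned in sign. Abcb1b had 0.43, Abcb6 -0.01, Abcc9 0.01, Abca1 -0.09, Abcg1 0.26 and Abcd4 -0.37. Without the same array they had 0.61, 0.38, 0.71, 0.26, 0.23 and -0.02. The pair that could not be tested in the 12-array fit had 3 values in each 48 h group. In a limma fit on the 6 arrays of 48 h, Abcg2 had -0.26 (SE 0.54) and Abca8a -0.01 (SE 0.61), each with adjusted p = 1.0. Abcg2 read 9.28, 9.25 and 7.50 in DMA 48 h hearts, against 9.28, 9.02 and 8.51 in DMSO 48 h hearts. Its lowest value came from DMA replicate 3.

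**Figure D3:**
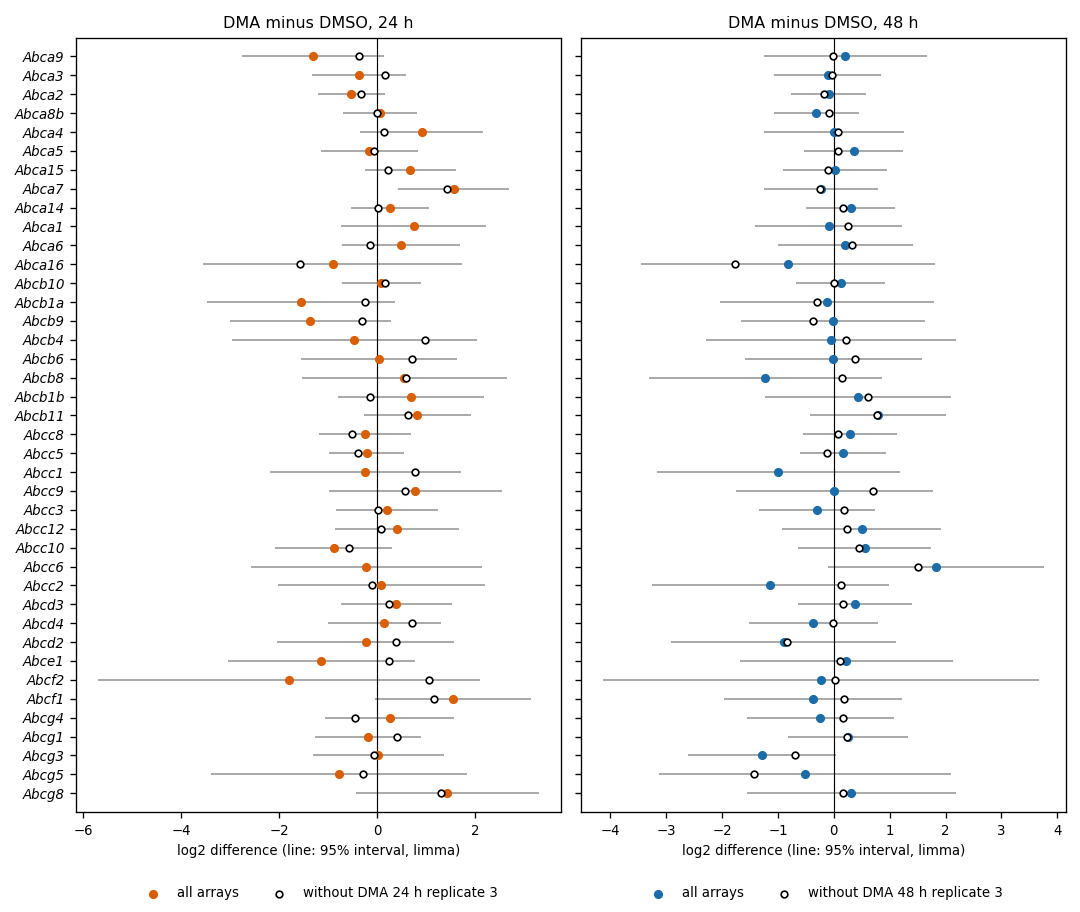
Difference of DMA minus DMSO hearts in log2 for the 40 tested ABC genes, at 24 h (left) and 48 h (right), ordered by subfamily A to G. Filled points are from all arrays with a limma 95% interval as a line, and open points are from the fit without DMA replicate 3 of that time, absent where too few values were left. At 24 h the open points of Abca9, Abcb1a, Abcb9, Abce1 and Abcf2 lie far from the filled ones, and Abca7 is the one interval that leaves out 0.

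The intervals state what this fit to these arrays could and could not show. The fit took the residual spread of a probe from the arrays of both times together. The 48 h intervals thus also carry the spread of the 24 h arrays, including DMA 24 h replicate 3. Half-widths that match between the times follow from this pooling. The median half-width of a 95% limma interval over the members was 1.32 log2 at both times, from 0.68 for Abca2 to 3.90 for Abcf2. An interval wholly inside 1 log2 of no difference was reached at 24 h by 3 of 40 members (Abca8b, Abcb10 and Abcc5) and at 48 h by 4 (Abca15, Abca2, Abcb10 and Abcc5). For every other tested member the interval of this pooled fit reached 1 log2 or more in at least 1 direction. In the fit on the 48 h arrays alone, the SEs of Abce1, Abcf2 and Abcb1a were 0.26, 0.49 and 0.42. At 48 h they were 0.87, 1.78 and 0.87 in the pooled fit. Abcb8 and Abcc2 went the other way, with 1.18 and 1.20 against 0.95 and 0.97 in the pooled fit. How many members the fit on the 48 h arrays alone would hold inside 1 log2 was not counted.

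Members of the 48 h groups varied together by replicate number. Same-numbered DMA and DMSO arrays at 48 h differed by a median size of 0.21, 0.16 and 0.54 log2 over the members for numbers 1, 2 and 3. Arrays of different numbers differed by 0.43 to 0.98. Over all genes the same-number sizes were 0.22 to 0.47 and the different-number sizes 0.39 to 0.63. Abcc9 shows it: it read 6.67, 5.53 and 3.99 in DMA 48 h hearts, against 7.00, 5.12 and 4.05 in DMSO 48 h hearts. The spread within each group was wide, with SDs of 1.34 in DMA and 1.49 in DMSO hearts, while the 3 differences between same-numbered arrays were -0.33, 0.41 and -0.06. Abcb6 read 7.41, 6.38 and 5.72 in DMA 48 h hearts, against 7.79, 5.77 and 5.98 in DMSO 48 h hearts, and Abca8a 8.43, 6.85 and 6.89 in DMA hearts, against 8.40, 6.78 and 7.03 in DMSO hearts. At 24 h only number 1 showed such a likeness over the members. The same-number sizes were 0.21, 0.57 and 1.37. DMA replicate 1 differed from DMSO replicates 2 and 3 by 0.57 and 0.51, DMA replicate 2 from DMSO replicates 1 and 3 by 0.44 and 0.59, and DMA replicate 3 from DMSO replicates 1 and 2 by 1.45 and 1.36.

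**Figure D4:**
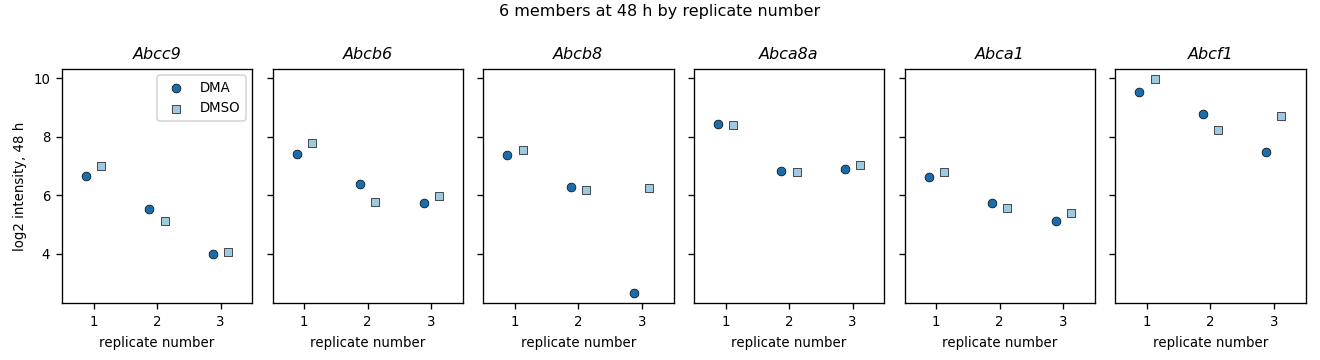
Log2 intensity of 6 ABC genes at 48 h by replicate number, with DMA hearts as circles and DMSO hearts as squares; the genes were picked after their values were seen. Abcc9, Abcb6, Abca8a and Abca1 are highest at number 1 in both DMA and DMSO hearts, while the DMA value of Abcb8 at number 3 (2.67) stands away from its DMSO partner (6.27).

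A limma fit that took the replicate number as a block used this likeness, and it too called no probe after adjustment. Under the block 2 members had an unadjusted limma p under 0.05 at 24 h (3.88% of all genes), which were Abca7 (1.71) and Abcf1 (1.55). At 48 h 1 member did (1.43% of all genes), which was Abcc6 (1.83). Their limma adjusted p in this fit was 0.693 at 24 h and 1.0 at 48 h. All 3 pairs had one sign for few members. At 24 h 1 of 33 members was positive in every pair (Abcb11) and 3 were negative (Abca2, Abcb9 and Abcg5), against 12.4% and 9.48% of all genes. At 48 h 4 of 35 were positive in every pair (Abca5, Abca6, Abcc8 and Abce1) and 3 negative (Abca2, Abca7 and Abcc2), against 15.1% and 9.77% of all genes.

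Whether the DMA difference changed between the times was tested as an interaction, the 48 h difference minus the 24 h difference. No probe passed the adjusted threshold (0.0% of 35401), and 695 had an unadjusted p under 0.05. Of the members only Abca7 had an unadjusted p under 0.05, against 1.5% of all genes (0.562% in the positive and 0.943% in the negative direction). Its difference was -0.23 at 48 h and 1.56 at 24 h, a change of -1.79 (SE 0.69, limma adjusted p = 0.999), and -1.67 with an unadjusted p above 0.05 without both arrays that stood apart. Next were Abcf1 (-1.92) and Abcg3 (-1.31) on the negative side, and Abcc10 (1.44), Abca9 (1.52) and Abcc6 (2.05) on the positive. Without both arrays Abcf1 had -0.98, Abcg3 -0.62, Abcc10 1.03 and Abca9 0.35. Abcc6 rested on DMSO 48 h replicate 1 and had 0.93 without it.

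Partner genes of the family gave no adjusted call at either time. The ABC genes with another symbol were the peptide carriers Tap1 and Tap2 and the chloride channel Cftr, with 0.17, -0.06 and -0.41 log2 at 24 h and 0.06, -0.21 and -0.10 at 48 h. Without DMA replicate 3 of the time they had 0.48, 0.76 and -0.72 at 24 h and 0.55, 0.04 and 0.49 at 48 h. The K-ATP channel pore is built from Kcnj11 (Kir6.2) or Kcnj8 (Kir6.1). Kcnj11 read 5.36, 6.11 and 6.71 in DMA 24 h hearts, against 4.63, 4.89 and 5.58 in DMSO 24 h hearts, all below the background level. The groups overlapped by DMA replicate 1. Each DMA value was above the DMSO value of the same number, as in 12.4% of all genes with 3 pairs. The difference was 1.03 (SE 0.43, limma adjusted p = 0.871), and 0.70 without DMA replicate 3. At 48 h it was 0.20, and Kcnj8 had 0.13 at 24 h and -0.41 at 48 h, but 1.08 and 0.27 without DMA replicate 3 of the time.

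Of 13 tested cholesterol efflux partners and regulators, 7 were positive at 24 h and 6 at 48 h, with medians of 0.15 and -0.00. Without DMA replicate 3 of the time, 11 of 12 were positive at 24 h and 9 of 13 at 48 h. The 10 factors that sense foreign compounds had 5 and 4 positive, and the smallest p at 24 h was that of Nfe2l2 (1.09), which encodes the oxidative stress factor Nrf2. Of 19 drug uptake and organic ion carriers, 12 were positive at 24 h and 11 at 48 h, and 9 at either time without DMA replicate 3. One of them, the organic anion carrier Slco1a1, had 1.19 at 48 h (limma adjusted p = 1.0). It read 5.42, 5.69 and 5.77 in DMA hearts, against 3.74, 5.09 and 4.48 in DMSO hearts, with no overlap. Each of these values was below the background level. Groups without overlap at 48 h were found for 6.27% of all genes, 3.95% with every DMA value above. Of 8 peptide loading genes 4 were positive at 24 h and 3 at 48 h, but 8 (median 0.51) and 6 without DMA replicate 3 of the time. Among them Psmb8, an immunoproteasome subunit, had 1.03 at 24 h (limma adjusted p = 0.871), and 0.78 without DMA replicate 3. It had no value on DMSO 24 h replicate 1, so the difference rested on DMSO values of 9.38 and 9.64. Genes of mitochondrial iron-sulfur and haem synthesis numbered 14, with 7 and 3 positive at 24 h and 48 h, and 9 of 14 and 6 of 13 without DMA replicate 3. Peroxisomal genes numbered 12, with 7 and 4 positive, and 8 and 9 without that array. Ribosome recycling genes numbered 7, with 2 and 3 positive, and 5 of 6 and 5 of 7 without it. The median of the ribosome recycling genes at 24 h was -0.68 and was 0.16 without DMA replicate 3.

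Markers of cell types that a heart can hold were read beside the members, and limma called none of them after adjustment. At 48 h the differences of all 16 tested endothelial markers were negative (median -0.38), and without DMA replicate 3 the median was -0.10 with 5 positive. Their mean level per array ran from 8.52 to 9.78 log2 in DMA 48 h hearts and from 9.44 to 9.94 in DMSO 48 h hearts. Of the 16 endothelial markers, 9 were above background on 6 or more arrays. Abcb1a and Abcg2, known from vessel endothelium, had -0.13 and -0.26 at 48 h, and the part of endothelial content in these values was not tested. The differences of Abcg2 between same-numbered arrays were 0.00, 0.23 and -1.01, so only the last, with DMA replicate 3, was negative. At 24 h 8 of 16 endothelial markers were positive (median 0.12), and 13 of 15 (median 0.70) without DMA 24 h replicate 3. The markers of smallest p were Robo4, Kdr and Tek, and Robo4 had no value on DMSO 24 h replicate 1. In DMSO 24 h hearts Kdr read 11.53, 9.82 and 10.75 and Tek 9.72, 5.80 and 8.25, each highest on replicate 1. On DMA 24 h replicate 1 they read 11.36 and 9.67, below DMSO replicate 1. Of 7 tested cardiomyocyte markers 5 were positive at 24 h and 2 at 48 h. Of 10 smooth muscle and pericyte markers 5 and 3 were positive, of 9 fibroblast markers 4 and 5, of 10 macrophage and monocyte markers 7 and 3, of 4 adipocyte markers 2 and 3, and of 2 erythroid markers 1 and 0. Without DMA replicate 3 of the time, fibroblast markers were positive in 7 of 9 at 24 h and 9 of 9 at 48 h, and macrophage and monocyte markers in 8 of 10 and 7 of 10. The macrophage and monocyte median at 48 h was -0.18 with all arrays and 0.23 without that array. Cardiomyocyte markers were positive in 5 of 7 and 4 of 6, smooth muscle and pericyte markers in 6 of 10 and 3 of 10, adipocyte markers in 1 of 3 and 1 of 4, and erythroid markers in 1 of 1 and 0 of 2. The part of these shifts in the member values was not tested.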

How the data were processed

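The deposited table holds log2 intensities of 12 one-colour arrays, scaled by the authors. How background was corrected, values were left out and arrays were normalized is not given in the sources used here. Per the labels' protocols, total RNA of myocardium was copied into biotinylated cRNA and stained with Cy5-streptavidin. Arrays give no read depth, and their number limits the precision. Gene names came from the platform annotation, and promoters and neighbours from RefSeq GRCm38.p6.

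All 12 arrays entered one model of 4 group means (lmFit and eBayes of limma 3.58.1, under R 4.3.3), for probes with at least 2 values per group. P-values were adjusted by Benjamini-Hochberg across the 35401 probes, at a threshold of 0.05. Gene counts used the brightest probe. Python 3.11.15 and matplotlib 3.10.9 served for summaries and plots. On simulated data of 35401 probes, the 24 h fit recovered 0%, 10%, 56% and 70% of changes of 1, 2, 3 and 4 log2, with 2 false calls, and the 48 h fit 0%, 22%, 50% and 70%, with 3. The simulated noise was independent between arrays and had the same SD on every array of a probe. Arrays that stood apart and likeness by replicate number were not simulated, so these shares need not hold for the real arrays.

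Members, lists and tests were chosen with earlier results of these data known. Members described in full were the 6 per direction of smallest p at each time, the 3 per direction for the difference between times, and those of known role in heart or vessel. Of other lists up to 3 genes of smallest p could be named. Same-numbered DMA and DMSO arrays deviated together (correlations across probes of 0.105 to 0.19 at 24 h and 0.276 to 0.335 at 48 h). The numbers were therefore taken as pairs in the block fit and in the differences between same-numbered arrays, but not in the main fit. The labels do not explain this pairing. Alternatives were the block, array weights, fits within a time, filters, quantile normalization, left-out arrays and probe means.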

Additional observations from a re-analysis of the deposited data

How the results depend on the processing

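No probe was called in any comparison under any alternative tried except 1, lower in DMA hearts, at 48 h without DMA 48 h replicate 1; leaving out 1 array thus gave 0 to 1 calls at 48 h and 0 in the other comparisons. The median member difference at 24 h was 0.04 log2 and was -0.23 when dim probes were left out, which kept fewer members. It lay between -0.12 and 0.19 with 1 array left out, and between -0.10 and 0.11 at 48 h. With the replicate block the medians were 0.04 and -0.01, calls stayed at 0, and probes with an unadjusted p under 0.05 numbered 1540, 744 and 1104 at 24 h, at 48 h and between the times, against 1071, 494 and 695 without the block. Subtracting a trend along probe numbers, chosen after seeing the data, gave medians of -0.11 at 24 h and -0.08 at 48 h. Of the members described in full, 9 of 26 changed sign at 24 h and 10 of 25 at 48 h when 1 array was left out. Among these members, Abca15 at 24 h (-0.38), Abcc8 at 24 h (0.39) and Abca14 at 48 h (-0.44) turned when all probes of the gene were averaged. Abca3, not among them, also had probes of opposite sign. Its brighter and dimmer probes gave -0.36 and 0.47 at 24 h and -0.11 and 0.21 at 48 h. For members near background, signal over background limits what a difference can show.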
